A study of Mus musculus with 70 samples.

Results

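The Ifit and Ifitm families are interferon-induced genes of cell-intrinsic antiviral defence, and their mRNA levels were compared here in microglia, the resident macrophages of the brain, from mice with a tamoxifen-inducible Cre. The 6 members, Ifit1, Ifit2, Ifit3, Ifit3b, Ifitm2 and Ifitm3, were picked by gene symbol from the 25806 genes listed in at least 1 of 5 count tables. All 6 had a row in 4 tables, and the adult Jung table held 5, without Ifitm2. Rows were matched by symbol alone, but the members themselves were chosen with earlier results of these data known.

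The libraries were bulk CEL-Seq2 libraries, which count molecules by a tag near the 3' end of the mRNA, made from 500 sorted cells each (CD11b+ CD45+ Ly6G- CD206-). There were 70 libraries in 17 groups. CreERT2 is a Cre recombinase that tamoxifen (TAM) sends to the nucleus. It sat in the Cx3cr1 gene of 2 mouse lines, named Littman and Jung, so every Cre-carrying mouse also had 1 altered Cx3cr1 allele.

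The postnatal table held 5 Littman Cre+ and 5 Cre- libraries, all after TAM, and 4 Jung TAM and 5 Jung Oil libraries, where oil is the solvent of TAM. Cre+ mice were Cx3cr1CreERT2(Litt) heterozygotes, Cre- mice were Cx3cr1 wild type, and these Jung mice also carried 1 Rosa26YFP allele. The vehicle and UC2288 table was of the Littman line: 5 UC2288 TAM Cre+, 4 Vehicle TAM Cre+, 3 UC2288 TAM Cre-, 5 Vehicle TAM Cre- and 4 Vehicle Oil Cre+ libraries. UC2288, a compound given to block CDKN1A, was injected at 100 mg/kg into postnatal mice. Per the labels the pups were 8 or 14 days old and received 0.1 mg TAM on days 1 and 3 or 0.2 mg on days 5 and 7, but which schedule belongs to which library is not given. The adult tables held 3 TAM and 4 Oil libraries of Littman mice and 4 of each of Jung mice, and the BLZ-titled table held 4 Littman TAM, 3 Littman Oil, 4 Jung TAM and 4 Jung Oil libraries. Adults were 6 to 15 weeks old and received 4 mg TAM in each of 2 injections. BLZ945, an inhibitor of the CSF1 receptor on which microglia depend, was given for 5 days at 100 mg/kg. The titles and treatment labels of the Jung adults conflict: the adult-titled Jung libraries carry BLZ945 in their labels and the BLZ-titled ones, which also carry Rosa26YFP, do not. The titles named the groups here, and no test set one Jung table against another.

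Type I interferons bind the receptor IFNAR, which signals through the kinases JAK1 and TYK2. A complex that contains STAT2 and IRF9 then binds the interferon-stimulated response element in the promoters of target genes, Ifit and Ifitm genes among them. IFIT proteins bind foreign RNA that lacks a complete cap and hold back its translation, while IFITM proteins sit in membranes and hinder the fusion of enveloped viruses with the cell.

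The promoters are shown because the members are a regulatory family. The doubled GAAA motif, which is GAAA, any 2 bases and GAAA again and is the shared core of the response element, was searched on both strands in the RefSeq windows of GRCm38.p6, which run from upstream of each transcript start to a short way past it. All 6 members had a window, and 5 held the motif, all but Ifit2, against 1079 of 27025 genes (3.99%). The longer form, in which CT follows, was found in 4 members, against 0.303% of genes. Capitals below mark the doubled GAAA motif or its reverse complement, in the sequence of the gene's own strand. The stretches printed are only parts of the searched windows, of which that of Ifit1 runs chr19:34640639-34640938. The Ifit1 stretch is chr19:34640739-34640838 on the plus strand. The Ifit3 and Ifit3b stretches are chr19:34583329-34583428 and chr19:34607725-34607824, also plus. Those of Ifitm2 and Ifitm3 are chr7:140955992-140956051 and chr7:141010714-141010742, both on the minus strand.
Ifit1: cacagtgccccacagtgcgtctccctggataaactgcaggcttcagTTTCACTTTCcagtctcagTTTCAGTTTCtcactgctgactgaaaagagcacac
Ifit3: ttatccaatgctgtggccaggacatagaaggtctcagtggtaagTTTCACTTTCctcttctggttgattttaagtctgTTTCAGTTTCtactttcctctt
Ifit3b: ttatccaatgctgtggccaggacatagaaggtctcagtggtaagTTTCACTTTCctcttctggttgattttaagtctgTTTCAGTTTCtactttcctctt
Ifitm2: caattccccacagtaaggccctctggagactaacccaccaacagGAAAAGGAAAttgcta
Ifitm3: GAAAAGGAAActtctgaGAAACCGAAAct

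The Ifit3 and Ifit3b stretches were identical over 100 of 100 bases. Ifit1, Ifit3, Ifit3b and Ifitm3 held 2 matches each, whose first bases lay 19, 34, 34 and 17 bases apart. The matches of Ifit1, Ifit3, Ifit3b and Ifitm2 lay before the annotated start and those of Ifitm3 just after it. The palindrome TTCNNNGAA was found in the windows of Ifit2 and Ifitm3, 2 of 6 members, against 9.55% of genes. In Ifitm3 it overlapped the second doubled GAAA match. A match describes the letters in these windows and is not a binding site.

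**Figure D1:**
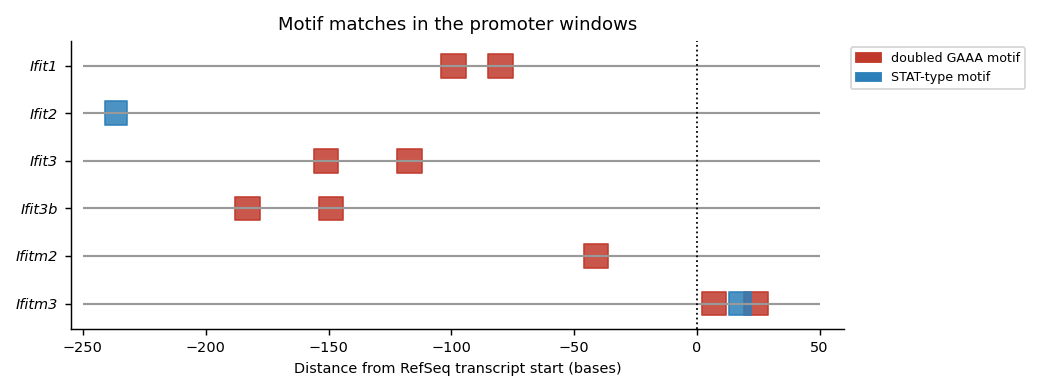
Positions of motif matches in the promoter window of each member, in bases from the RefSeq transcript start (dotted line). Red blocks are the doubled GAAA motif on either strand and blue blocks TTCNNNGAA. Ifit1, Ifit3, Ifit3b and Ifitm3 have a pair of red blocks, Ifitm2 has a single one and Ifit2 has none.

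The 4 Ifit genes lie close together on chromosome 19 and both Ifitm genes on chromosome 7 (GRCm38, GENCODE vM21). Ifit1 spans 34640871 to 34650009, Ifit2 34550694 to 34576419, Ifit3 34583531 to 34588731 and Ifit3b 34607970 to 34613401, all on the plus strand. Ifitm2 spans 140954837 to 140955987 and Ifitm3 141009586 to 141010770, on the minus strand. Some members share sequence, and how reads of shared sequence were counted is not given in the sources used here. Of the stretches of 81 bases, the insert length, in the last 500 bases of the Ifit3 transcript, 8.57% also occurred in Ifit3b, and 38.7% did over its whole length. Ifit3b shared 33.6% with Ifit3 over its whole length and Ifit1 4.74% with Ifit1bl2, and neither shared any in its last 500 bases. In Ifitm2, 30.2% of the stretches in the last 500 bases also occurred in predicted genes or pseudogenes. Counts of Ifit3 and Ifitm2 are therefore uncertain between copies, and those of Ifit3b could hold reads of Ifit3. Ifit2 and Ifitm3 shared no such stretch.

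Levels are given as CPM, the count divided by the library total and set to a common scale. Library totals ran from 116083 to 277680 counts for the vehicle and UC2288 experiment, from 184513 to 236106 for the BLZ-titled mice, from 274120 to 304794 for adult Jung, from 288396 to 347941 for adult Littman and from 329329 to 450461 for the other pups, so 1 count was worth several CPM. The gene that carries the insertion followed the Cre labels where Cre- mice were present, since Cx3cr1 was at 1267 to 1514 CPM in postnatal Littman Cre+ libraries, against 3718 to 4009 CPM in Littman Cre- libraries, and at 842 to 1116 CPM in Vehicle TAM Cre+, against 2237 to 2919 CPM in Vehicle TAM Cre- libraries. In Vehicle Oil Cre+ libraries it was at 1355 to 1545 CPM, so Cx3cr1 also differed with TAM within Cre+ mice. A 3' tag may also count the altered allele. Microglial markers were high in every group. One library stood apart: UC2288 TAM Cre+ replicate 3 had 1803 CPM of Cx3cr1, against 651 to 917 CPM in the other 4 of its group. Fold changes and adjusted p-values below come from edgeR's quasi-likelihood test with Benjamini-Hochberg adjustment over all tested genes of a table, and a gene is called at an adjusted p below 0.05. No label says that libraries came from separate animals, so p-values measure the spread between these libraries, which may be technical.

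In Littman pups given TAM, vehicle-injected Cre+ microglia held far more Ifit1, Ifit2, Ifit3, Ifit3b and Ifitm3 mRNA than Cre- microglia. Each of these 5 genes rose, and in each the 4 Vehicle TAM Cre+ libraries lay above all 5 Vehicle TAM Cre- libraries. Among all 4953 tested genes, 27.2% were called, 14.3% as higher, and 17.7% did not overlap in this direction. The 4 Ifit genes and Ifitm3 passed the low-count filter through the TAM-treated Cre+ libraries alone, so that their number is a description.

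Ifit1, which binds incompletely capped RNA, had 122, 113, 75.6 and 62.0 CPM in the Vehicle TAM Cre+ libraries. The 5 Vehicle TAM Cre- libraries had 0, 0, 0, 0 and 9.32 CPM. Only 1 of these 5 held any Ifit1 count, and the log2 fold change was 4.99 ± 0.585 (SE, adjusted p = 6.39e-08).

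Ifit2, a partner of the other IFIT proteins, had 204, 113, 212 and 172 CPM in Vehicle TAM Cre+ libraries. It had 6.00, 0, 0, 5.77 and 4.66 CPM in Vehicle TAM Cre- libraries. The groups stood well apart, with a log2 fold change of 5.41 ± 0.489 (adjusted p = 1.66e-10).

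Ifit3, which stabilises the complex formed with IFIT1 in humans, had 263, 135, 209 and 159 CPM in Vehicle TAM Cre+ libraries and 12.0, 0, 8.96, 0 and 0 CPM in Vehicle TAM Cre- libraries. Its log2 fold change was 5.20 ± 0.470 (adjusted p = 2.75e-10). Ifit3b, the mouse duplicate of Ifit3, had 126, 94.6, 50.4 and 68.9 CPM in Vehicle TAM Cre+ libraries. All 5 Vehicle TAM Cre- libraries were at 0 for Ifit3b. Against a floor of 3 counts over the Cre- group, Ifit3b was at least 28.5-fold higher in Vehicle TAM Cre+ libraries (adjusted p = 1.42e-07).

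Ifitm3, which acts at endosomes against entering viruses, had 981, 1238, 537 and 593 CPM in Vehicle TAM Cre+ libraries. The Vehicle TAM Cre- libraries had 42.0, 9.36, 4.48, 0 and 42.0 CPM. Means were 837 ± 332 CPM in Vehicle TAM Cre+ (SD, n = 4) and 19.6 ± 20.7 CPM in Vehicle TAM Cre- libraries (SD, n = 5), and the log2 fold change was 5.21 ± 0.478 (adjusted p = 2.13e-10). Its close relative Ifitm2 did not follow this pattern. It had 29.6, 13.5, 10.8 and 6.89 CPM in Vehicle TAM Cre+ libraries and 18.0, 9.36, 13.4, 11.5 and 28.0 CPM in Vehicle TAM Cre- libraries. The groups overlapped throughout, Ifitm2 did not pass the low-count filter, and the pooled ratio of 15 to 16 counts was 1.02 (95% exact interval 0.468 to 2.19, counting error only). This interval does not show that the levels were alike.

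The same 5 genes rose when TAM was compared with oil within vehicle-injected Cre+ mice, which share the altered Cx3cr1 allele. Here 31.4% of 4953 tested genes were called, 16.1% as higher, and 19.8% did not overlap with TAM above oil. Both comparisons use the Vehicle TAM Cre+ libraries. Ifit1 had 10.1, 0, 0 and 0 CPM in the 4 Vehicle Oil Cre+ libraries, and the log2 fold change of TAM over oil was 4.61 ± 0.626 (adjusted p = 1.27e-06). Ifit2 had 10.1, 0, 0 and 6.93 CPM in the Vehicle Oil Cre+ libraries, with a log2 fold change of 5.00 ± 0.522 (adjusted p = 5.16e-09). Ifit3 was present with 1 count in 1 of the 4 oil libraries, and the pooled ratio was 134 (95% exact interval 23.8 to 5341). Ifit3b was at 0 in all 4 oil libraries and at least 19.5-fold higher with TAM. Ifitm3 averaged 837 ± 332 CPM in Vehicle TAM Cre+ and 16.1 ± 12.9 CPM in Vehicle Oil Cre+ libraries (SD, n = 4 each), a log2 fold change of 5.62 ± 0.561 (adjusted p = 2.00e-09). Ifitm2 averaged 15.2 ± 9.99 CPM in Vehicle TAM Cre+ and 4.27 ± 2.98 CPM in Vehicle Oil Cre+ libraries. The groups overlapped narrowly, with a lowest TAM value of 6.89 CPM and a highest oil value of 6.93 CPM. The pooled ratio of 15 to 3 counts was 3.7 (95% exact interval 1.045 to 19.9, counting error only). Ifitm2 did not pass the low-count filter, and without that filter edgeR did not call it (adjusted p = 0.339).

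In UC2288-treated pups 5 of the 6 members were again higher in Cre+ than in Cre- libraries after TAM, where 4% of the tested genes were called, 3.51% as higher, and 4.93% did not overlap in this direction. Ifit1 had 104, 93.1, 118, 97.3 and 121 CPM in UC2288 TAM Cre+ libraries and was at 0 in all 3 UC2288 TAM Cre- libraries, so it was at least 19.2-fold higher (adjusted p = 3.83e-07). Ifit3 had 184, 200.1, 243, 299 and 190.5 CPM in UC2288 TAM Cre+ libraries, was also at 0 in the 3 UC2288 TAM Cre- libraries, and was at least 39.2-fold higher (adjusted p = 4.25e-09). No library of one group reached the other in either gene. Ifit3b was at 0 in the UC2288 TAM Cre- libraries as well and at least 16.4-fold higher in Cre+ libraries. Ifit2 had 148 counts in UC2288 TAM Cre+ and 1 count in UC2288 TAM Cre- libraries, a pooled ratio of 87.9 (95% exact interval 15.5 to 3494). Ifitm3 averaged 1120 ± 556 CPM in UC2288 TAM Cre+ (SD, n = 5) and 9.44 ± 12.6 CPM in UC2288 TAM Cre- libraries (SD, n = 3), a log2 fold change of 6.59 ± 0.644 (adjusted p = 4.25e-09). Without UC2288 TAM Cre- replicate 3 this fold change was 8.33. Ifitm2 had 24.0, 18.6, 12.5, 22.5 and 38.1 CPM in UC2288 TAM Cre+ and 23.1, 0 and 23.7 CPM in UC2288 TAM Cre- libraries, with overlap and a pooled ratio of 1.25 (95% exact interval 0.562 to 2.97). Without UC2288 TAM Cre+ replicate 3 the other 5 were still called.

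Set directly against vehicle in Cre+ TAM mice, UC2288 called none of the 5 members tested, where 0.727% of tested genes were called, and none had an unadjusted p under 0.05. The log2 fold change of Ifit1 was 0.24 (95% interval -0.39 to 0.87, adjusted p = 0.736) and that of Ifit2 -0.04 (-0.57 to 0.50, adjusted p = 0.962). Ifit3 differed by 0.27 (-0.26 to 0.80) and Ifit3b by 0.17 (-0.49 to 0.83) on the log2 scale. Ifitm3 had 825, 1424, 362, 1811 and 1181 CPM in UC2288 TAM Cre+ libraries, against 981, 1238, 537 and 593 CPM in Vehicle TAM Cre+ libraries. These ranges overlapped, with an Ifitm3 log2 fold change of 0.50 (-0.18 to 1.17, adjusted p = 0.462). The lowest of the 9 values was that of UC2288 TAM Cre+ replicate 3, and without it the fold change was 0.72 (adjusted p = 0.249). The intervals leave room for changes in either direction, so that equality was not shown. DESeq2 gave an adjusted p for Ifitm3 alone of these 5. Ifitm2, which was not tested, averaged 23.1 ± 9.47 CPM in UC2288 TAM Cre+ and 15.2 ± 9.99 CPM in Vehicle TAM Cre+ libraries, with overlap.

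In Cre- mice the Ifit genes were at or near 0 with either injection, and Ifitm2 and Ifitm3 were low but detected. Ifit1 and Ifit3 had no count in the 3 UC2288 TAM Cre- libraries and 2 and 4 counts over the 5 Vehicle TAM Cre- libraries, and Ifit3b had none in either. Ifitm3 averaged 9.44 ± 12.6 CPM in UC2288 TAM Cre- and 19.6 ± 20.7 CPM in Vehicle TAM Cre- libraries. Ifitm2 averaged 15.6 ± 13.5 CPM in UC2288 TAM Cre- and 16.1 ± 7.38 CPM in Vehicle TAM Cre- libraries, with overlap. None of the 5 members tested was called in this comparison, where 0.0202% of tested genes were, none had an unadjusted p under 0.05, and DESeq2 called none. The interaction, the difference between the Cre effects with UC2288 and with vehicle, called 1.94% of tested genes and none of the members that could be fitted. For Ifitm3 it was 1.38 ± 1.02 on the log2 scale (adjusted p = 0.444). Ifit3b could not be fitted because both Cre- groups were at 0.

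**Figure D2:**
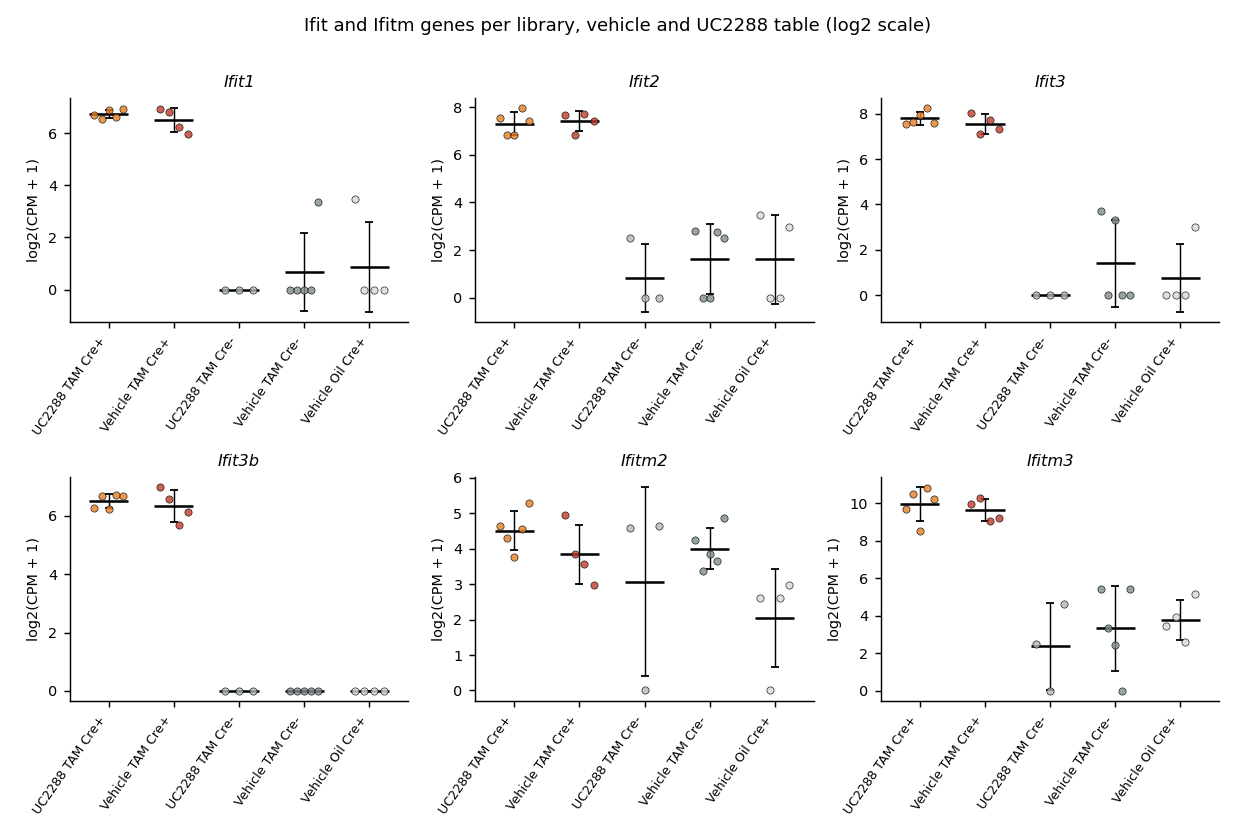
Level of each member in every library of the vehicle and UC2288 table, as log2(CPM + 1). Points are libraries, thick lines means and bars SD. The UC2288 and vehicle TAM Cre+ groups lie above the other 3 groups for all members except Ifitm2, whose groups overlap.

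Other genes of the interferon pathway moved in the same comparisons. Of a list of 30 such genes, 26 were tested in the vehicle and UC2288 table, and 22 rose and none fell in Vehicle TAM Cre+ against Vehicle TAM Cre- libraries, where 14.3% of all tested genes rose. Of the 26, 20 passed the low-count filter through the TAM-treated Cre+ libraries alone, so these counts and medians are a description. The median log2 fold change over the 26 was 3.98, against -0.01 over all 4953 genes. The 4 largest fitted changes were those of Oasl1, Ifi204, Zbp1 and Rsad2, an order that is not fixed since Oasl1 and Zbp1 had no count in Vehicle TAM Cre- libraries. Ifi204, a DNA sensor, averaged 596.8 ± 26.6 CPM in Vehicle TAM Cre+ (SD, n = 4) and 2.36 ± 3.23 CPM in Vehicle TAM Cre- libraries (SD, n = 5). Rsad2, which encodes the antiviral enzyme viperin, averaged 336 ± 89.7 CPM in Vehicle TAM Cre+ and 0.932 ± 2.08 CPM in Vehicle TAM Cre- libraries. Oasl1, a regulator of Irf7 translation, averaged 146 ± 14.5 CPM and Zbp1, a sensor of left-handed nucleic acids, 132 ± 21.1 CPM in Vehicle TAM Cre+ libraries, and both were at 0 in all Vehicle TAM Cre- libraries. They were at least 48.8-fold (Oasl1) and 43.0-fold (Zbp1) higher, against a floor of 3 counts over the Cre- group.

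Signalling genes of the list were looked at by role, after their values were known. Stat2 rose by 3.96 ± 0.345, Irf9 by 1.47 ± 0.294 and the kinase gene Tyk2 by 1.19 ± 0.417 on the log2 scale in Vehicle TAM Cre+ against Vehicle TAM Cre- libraries. The receptor genes Ifnar1 (0.76, adjusted p = 0.0801) and Ifnar2 (-0.31, adjusted p = 0.479), the kinase gene Jak1 (0.07, adjusted p = 0.867) and Irf3 (-0.03, adjusted p = 0.956) were not called. Ifnb1, which encodes interferon beta, had no count in any Vehicle library. In TAM over oil, 21 of the 26 rose and none fell, where 16.1% of all tested genes rose, with a median of 4.86, or 4.01 with the 5 genes at 0 in the oil group set at their lower bounds. The largest fitted changes there were those of Oas2, Ifih1, Usp18 and Rsad2, the first 3 of which had no count with oil. In UC2288 TAM Cre+ over UC2288 TAM Cre- libraries 21 of the 26 rose and none fell, where 3.51% of all tested genes rose, with a median of 3.71, or 3.55 with lower bounds. Zbp1, Oas2, Isg15 and Irf7 had the largest fitted changes, and Zbp1 and Oas2 had no count in UC2288 TAM Cre- libraries. UC2288 against vehicle in Cre+ TAM mice called none of the 26 with edgeR, with a median of -0.22 against 0.02 over all genes.

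Several other measures moved with the members in this table, and their part in the result was not tested. The summed level of 6 monocyte markers was 87.4 to 293 CPM in UC2288 TAM Cre+ and 96.5 to 281 CPM in Vehicle TAM Cre+ libraries. It was 0 to 59.9 CPM in UC2288 TAM Cre-, 0 to 23.4 CPM in Vehicle TAM Cre- and 0 to 21.7 CPM in Vehicle Oil Cre+ libraries. Plac8 rose by 4.27 ± 0.499 on the log2 scale in Vehicle TAM Cre+ against Vehicle TAM Cre- libraries, while Ly6c2, a defining monocyte gene, was at 0 in both Cre+ TAM groups, in which 4 of the 6 markers were detected. The sum of 6 microglial markers was lower, at 4667 to 5277 CPM in Vehicle TAM Cre+, against 9308 to 10590 CPM in Vehicle TAM Cre- and 11180 to 14590 CPM in Vehicle Oil Cre+ libraries. In UC2288 TAM Cre+ libraries this sum was 5015 to 12100 CPM, against 9391 to 11540 CPM in UC2288 TAM Cre- libraries. The border macrophage markers summed to 82.7 to 187 CPM in Vehicle TAM Cre+ and 267 to 462 CPM in Vehicle TAM Cre- libraries. Of these 6 markers 4 were detected in Vehicle TAM Cre+ and 3 in Vehicle TAM Cre- libraries, and Lyve1 was at 0 in both. The sum of 5 astrocyte markers was 63.0 to 104 CPM in Vehicle TAM Cre+, against 18.7 to 57.7 CPM in Vehicle TAM Cre- and 29.0 to 45.9 CPM in Vehicle Oil Cre+ libraries, with 3 of the 5 detected in Vehicle TAM Cre+ libraries and Gfap, a defining one, at 0. Among them Slc1a3 rose by 1.27 ± 0.392 against Cre- and by 1.63 ± 0.453 against oil on the log2 scale. In UC2288 TAM Cre+ libraries the astrocyte sum was 15.0 to 140.1 CPM, against 23.7 to 83.0 CPM in UC2288 TAM Cre- libraries. All 6 neutrophil markers were at 0 in both Cre+ TAM groups, and in UC2288 TAM Cre- replicate 1 they summed to 650 CPM. In bulk libraries fewer cells of a type and less RNA per cell cannot be told apart.

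In the postnatal table the Littman Cre+ microglia again held more Ifit and Ifitm mRNA than Cre- microglia after TAM, at lower CPM. Ifit3 and Ifitm3, 2 of the 6 members, passed the low-count filter, and both rose. Among 7076 tested genes 7.8% were called, 4.56% as higher. Both members passed the filter through the Littman Cre+ libraries alone, so that their number is a description. Ifit3 had 13.6, 42.6, 36.3, 51.1 and 36.7 CPM in Littman Cre+ libraries. The Littman Cre- libraries had 0, 10.2, 5.11, 7.99 and 11.7 CPM. The log2 fold change was 2.37 ± 0.454 (adjusted p = 0.00025), and the groups did not overlap. Ifitm3 had 81.6, 42.6, 36.3, 48.8 and 64.2 CPM in Littman Cre+ libraries and 5.27, 10.2, 0, 5.32 and 5.86 CPM in Littman Cre- libraries. All Cre+ values lay above all Cre- values, with a log2 fold change of 3.34 ± 0.423 (adjusted p = 9.47e-08).

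The other 4 members had 2 to 62 counts per group and were tested only when the low-count filter was left out. In that fit, which called 1.84% of 19820 genes as higher, Ifit1, Ifit2 and Ifit3b rose and Ifitm2 missed the threshold (adjusted p = 0.056). Ifit1 averaged 16.6 ± 9.91 CPM in Littman Cre+ and 1.12 ± 1.53 CPM in Littman Cre- libraries (SD, n = 5 each), with a log2 fold change of 3.61 (adjusted p = 7.33e-05). Ifit2 averaged 29.3 ± 13.1 CPM in Littman Cre+ and 8.08 ± 5.26 CPM in Littman Cre- libraries, with a log2 fold change of 1.87 (adjusted p = 0.000686). For Ifit3b the log2 fold change was 2.44 (adjusted p = 0.000559). Its Littman Cre+ values were 11.3 to 33.3 CPM, and of the Cre- libraries replicate 5 had 20.5 CPM and the other 4 had none. Ifitm2 had 6.66 to 13.8 CPM in Littman Cre+ and 0 to 2.93 CPM in Littman Cre- libraries, without overlap. In all, 5 of 6 members did not overlap, against 1.2% of the 19820 genes with any count.

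In Jung pups no member was called between TAM and oil. Ifit3 had 21.3, 3.04, 13.3 and 26.1 CPM in Jung TAM libraries and 12.5, 2.80, 0, 5.09 and 5.32 CPM in Jung Oil libraries. The groups overlapped, and the log2 fold change of 1.56 ± 0.606 had an unadjusted p of 0.0133 and an adjusted p of 0.819. Ifitm3 averaged 5.63 ± 4.36 CPM in Jung TAM (SD, n = 4) and 8.79 ± 4.99 CPM in Jung Oil libraries (SD, n = 5), a log2 fold change of -0.64 ± 0.661 (adjusted p = 0.976). Ifit1 averaged 4.27 ± 3.68 CPM in Jung TAM and 4.22 ± 8.11 CPM in Jung Oil libraries. Ifit2 averaged 12.7 ± 8.86 CPM in Jung TAM and 8.34 ± 7.92 CPM in Jung Oil libraries, and Ifit3b 3.45 ± 4.09 CPM in Jung TAM and 1.04 ± 1.43 CPM in Jung Oil libraries. All 3 overlapped between the groups. Ifitm2 was at 0 in all 9 Jung libraries. Of the 2 members tested, 1 had an unadjusted p under 0.05 and none was called by edgeR or DESeq2, where edgeR called 0.0848% of all genes.

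The difference between the lines was tested as the Littman Cre+ over Cre- change minus the Jung TAM over Oil change, which called 0.353% of genes. It was 3.98 ± 0.817 on the log2 scale for Ifitm3 (adjusted p = 0.00701) and 0.80 ± 0.853 for Ifit3 (adjusted p = 0.85). The 2 contrasts are not of the same kind, since the Littman one compares genotypes under TAM and the Jung one compares TAM with oil. Set directly against Jung TAM libraries, Littman Cre+ libraries had higher Ifitm3, with a log2 fold change of 3.27 ± 0.461 (adjusted p = 1.93e-06), and 6.74% of genes were called. Ifit3 differed by 1.19 ± 0.414 (adjusted p = 0.0738). With no low-count filter, Ifit3b also rose, by 2.54 (adjusted p = 0.00229), and Ifitm2 did (adjusted p = 0.00121), where 1.68% of genes were called as higher. Littman Cre+ libraries did not overlap Jung TAM libraries for Ifit3b, Ifitm2 and Ifitm3, as was so for 1.64% of the 19820 genes with any count. Ifitm2 had 23 counts in Littman Cre+ and none in Jung TAM libraries, at least 5.16-fold more.

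**Figure D3:**
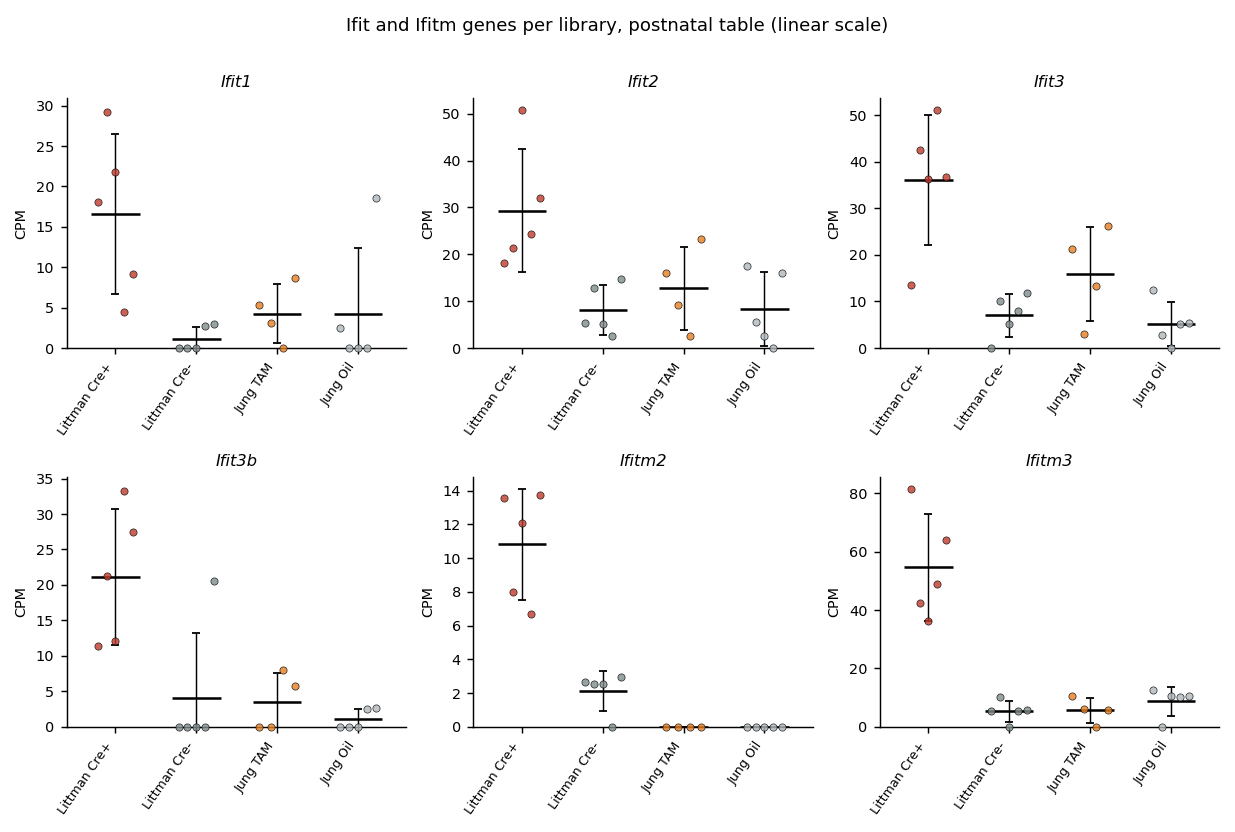
Level of each member in every library of the postnatal table, in CPM on linear axes that start at 0. Points are libraries, thick lines means and bars SD, drawn down to 0 where they would pass it. Littman Cre+ libraries lie above Littman Cre- libraries for all members except Ifit3b, where 1 Cre- library reaches the Cre+ range, and Jung TAM and Jung Oil libraries overlap.

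Of the pathway list 18 genes were tested in the postnatal table, and 11 rose and none fell in Littman Cre+ against Cre- libraries, where 4.56% of all tested genes rose. The median log2 fold change was 0.86 against 0.00 over all genes, and 6 of the 18 passed the low-count filter through the Littman Cre+ libraries alone. Oas2, an RNA-sensing synthetase, rose by 4.89 ± 0.487, Ifi204, a DNA sensor, by 4.19 ± 0.358, Rsad2, which encodes viperin, by 3.49 ± 0.495 and Oasl2 by 2.05 ± 0.298 on the log2 scale. Stat2 rose by 0.88 ± 0.243, whereas Irf9 (0.38, adjusted p = 0.179) and Jak1 (-0.25, adjusted p = 0.179) were not called. Jung TAM against oil called none of the 18 with edgeR. The line difference called Ifi204 alone of the 18, at 3.18 ± 0.724 (adjusted p = 0.0192). The monocyte marker sum was 21.3 to 66.5 CPM in Littman Cre+ libraries, against 2.56 to 53.5 CPM in Littman Cre- libraries. Within it Plac8 rose by 2.30 ± 0.437, and Ly6c2 was at 0 in Littman Cre+ libraries. The neutrophil markers were at 0 in all postnatal libraries except Littman Cre- replicate 2, with 1097 CPM. The sum of microglial markers was 12800 to 16680 CPM in Littman Cre+ and 17510 to 20580 CPM in Littman Cre- libraries, without overlap. Border macrophage markers summed to 99.2 to 268 CPM in Littman Cre+ and 87.8 to 123 CPM in Littman Cre- libraries. Of these 6 markers 3 were detected in Littman Cre+ and 2 in Littman Cre- libraries, with Lyve1, Cd163 and F13a1 at 0 in both. Astrocyte markers summed to 83.8 to 169 CPM in Littman Cre+ and 149 to 229 CPM in Littman Cre- libraries. Log2 fold changes were 0.60 ± 0.183 for Mrc1, -0.48 ± 0.153 for Slc1a3 and -1.61 ± 0.365 for the endothelial gene Pecam1, all called. Mrc1, a border macrophage gene, and Slc1a3 moved the other way in Vehicle TAM Cre+ against Cre- libraries. The part of these markers in the result was not tested. Leaving out Littman Cre- replicate 2, which changes only the neutrophil transcripts named above, kept the calls of Ifit3 and Ifitm3 and says nothing on the other markers.

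In adult Littman mice the members stayed at a few counts per library with TAM and with oil. None passed the low-count filter, with which 0.0181% of genes were called, and without it edgeR called none of the 6 (adjusted p of 0.824 or more), where 0.0229% of genes were called as higher and 0.0343% as lower. Ifit3 had 16.4, 6.52 and 8.62 CPM in adult Littman TAM libraries, against 6.41, 3.07, 3.47 and 13.6 CPM in adult Littman Oil libraries. Ifitm3 had 39.4, 3.26 and 23.0 CPM in adult Littman TAM and 9.61, 9.20, 6.94 and 23.7 CPM in adult Littman Oil libraries. Both genes overlapped between the groups. Over all libraries Ifit1 had 7 counts with TAM and 5 with oil, Ifit3b 4 with TAM and 1 with oil, and Ifitm2 none with TAM and 1 with oil. Ifit2 had 6 counts with TAM and 1 with oil, a pooled ratio of 7.64 whose exact interval runs from 0.927 to 352, so that a difference was not detectable at this depth. In the adult-titled Jung libraries no gene was called by edgeR (0% of 5111), where 113 had an unadjusted p under 0.05, and DESeq2 called none. Without the low-count filter none of the 5 members in that table was called, with adjusted p of 0.794 or more, and Ifit1 and Ifit3b had 2 counts each over the TAM libraries and 5 each over the oil libraries. Ifitm3 averaged 13.9 ± 10.4 CPM in adult-titled Jung TAM and 7.79 ± 3.54 CPM in adult-titled Jung Oil libraries (SD, n = 4 each). Ifit3 averaged 6.94 ± 2.97 CPM with TAM and 12.4 ± 14.2 CPM with oil. Ifit2 had 6.99, 10.4, 6.56 and 7.04 CPM in adult-titled Jung TAM libraries and 0, 0, 0 and 7.30 CPM in adult-titled Jung Oil libraries, where a single oil library reached the TAM range. Of the pathway list 11 genes were tested in each adult table and none was called by edgeR.

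In the BLZ-titled table the Littman libraries held Ifit and Ifitm mRNA at high levels with TAM and with oil alike. Ifitm3 had 794, 1021, 490 and 1005 CPM in BLZ Littman TAM libraries, against 901, 909 and 677 CPM in BLZ Littman Oil libraries. The ranges overlapped, with means of 827 ± 248 CPM (SD, n = 4) for TAM and 829.1 ± 132 CPM (SD, n = 3) for oil, and a log2 fold change of -0.04 (95% interval -0.53 to 0.46, adjusted p = 0.988). Ifit3 had 98.7, 279.5, 120.2 and 128 CPM in BLZ Littman TAM and 176, 218 and 146 CPM in BLZ Littman Oil libraries, a log2 fold change of -0.23 (-0.86 to 0.40, adjusted p = 0.911). The highest value was that of TAM replicate 2. Ifit1 averaged 74.7 ± 32.8 CPM with TAM and 88.8 ± 16.0 CPM with oil. Ifit2 averaged 84.1 ± 34.2 CPM with TAM and 88.3 ± 39.7 CPM with oil, and Ifit3b 50.01 ± 13.5 CPM with TAM and 60.9 ± 18.5 CPM with oil. Ifitm2 had 4.29, 8.47, 0 and 44.1 CPM with TAM and 4.29, 0 and 17.7 CPM with oil. Of the 5 members tested none was called by edgeR or DESeq2, none had an unadjusted p under 0.05, and 0.0581% of tested genes were called by edgeR. By sex-linked transcripts the BLZ Littman Oil libraries were all male and the BLZ Littman TAM libraries mostly female, so sex differed with TAM here. Of the pathway list 22 genes were tested in this table, and edgeR called none between TAM and oil in either line.

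The Jung libraries of the BLZ-titled table were much lower. Ifitm3 had 32.0, 26.5, 71.0 and 75.9 CPM in BLZ-titled Jung TAM libraries and 36.9, 8.90, 26.2 and 26.2 CPM in BLZ-titled Jung Oil libraries. The ranges overlapped, with a log2 fold change of 1.12 (95% interval 0.16 to 2.08, adjusted p = 0.838). Ifit1 had 21.3, 5.30, 10.1 and 27.1 CPM in BLZ-titled Jung TAM libraries, all above the 5.28, 0, 0 and 0 CPM of BLZ-titled Jung Oil libraries, as 1.1% of tested genes did. With 12 counts against 1 its log2 fold change was 3.16 ± 0.987 (unadjusted p = 0.00319, adjusted p = 0.806). Ifit2 averaged 3.87 ± 4.88 CPM in BLZ-titled Jung TAM and 7.86 ± 15.7 CPM in BLZ-titled Jung Oil libraries, and Ifit3 15.8 ± 7.41 CPM in TAM and 11.2 ± 11.4 CPM in Oil libraries. Ifit3b had 6 counts over the TAM and 2 over the Oil libraries, and Ifitm2 had 1 count over the TAM and none over the Oil libraries. No gene of that comparison was called by edgeR (0%) or DESeq2, while 287 genes and 2 of the 5 members tested had an unadjusted p under 0.05. The line difference in this table called no gene with edgeR either (0%), with 417 at an unadjusted p under 0.05, and DESeq2 called 1 gene, not a member. For Ifitm3 it was -1.16 (95% interval -2.24 to -0.08, adjusted p = 0.569).

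Between the lines, the BLZ Littman TAM libraries lay above the Jung TAM libraries of the same table for Ifit1, Ifit2, Ifit3, Ifit3b and Ifitm3, as 4.51% of tested genes did. The BLZ Littman Oil libraries lay above the Jung Oil libraries for the same 5 genes, as 7.59% did. These sets were chosen after their values were seen and were not tested. They differ in line, in the Rosa26YFP allele of the Jung mice and, per the treatment labels, in BLZ945, and these cannot be told apart. By sex-linked transcripts, BLZ Littman TAM libraries were mostly female and the Jung TAM libraries of the same table mostly male. Other markers differed with them, and their part was not tested. The monocyte markers summed to 12.7 to 107 CPM in BLZ Littman TAM and 34.3 to 155 CPM in BLZ Littman Oil libraries, against 0 to 5.42 CPM in Jung TAM and 5.28 to 15.7 CPM in Jung Oil libraries. The microglial markers summed to 7024 to 12350 CPM in BLZ Littman TAM, against 14520 to 15670 CPM in Jung TAM libraries, and to 12110 to 13350 CPM in BLZ Littman Oil, against 14510 to 16470 CPM in Jung Oil libraries, without overlap in either case. Neutrophil markers were at 0 in all libraries of this table but 2, BLZ Littman TAM replicate 1 with 2415 CPM and BLZ Littman Oil replicate 3 with 2845 CPM. Ifitm3 in those 2 libraries was 794 and 677 CPM, below the highest of their groups. Left out together, an alternative chosen after seeing the data, they moved the Ifitm3 fold change of TAM over oil to -0.13 (adjusted p = 0.978), and still no member was called.

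**Figure D4:**
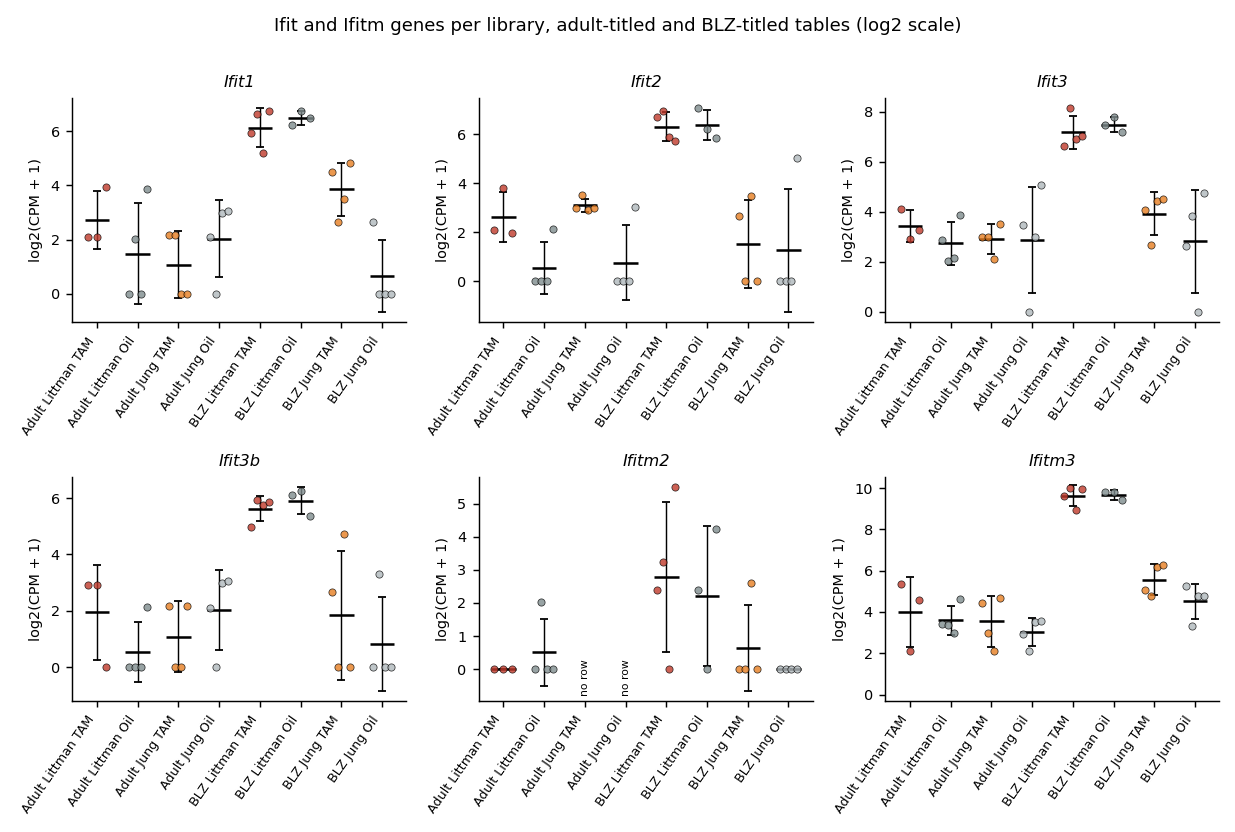
Level of each member in every library of the adult-titled and BLZ-titled tables, as log2(CPM + 1), with means (thick lines) and SD (bars). The BLZ Littman TAM and Oil groups lie together and above the Jung groups for all members except Ifitm2, and the adult groups lie low. The adult Jung table has no Ifitm2 row, and the 3 tables were normalised separately.

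**Figure D5:**
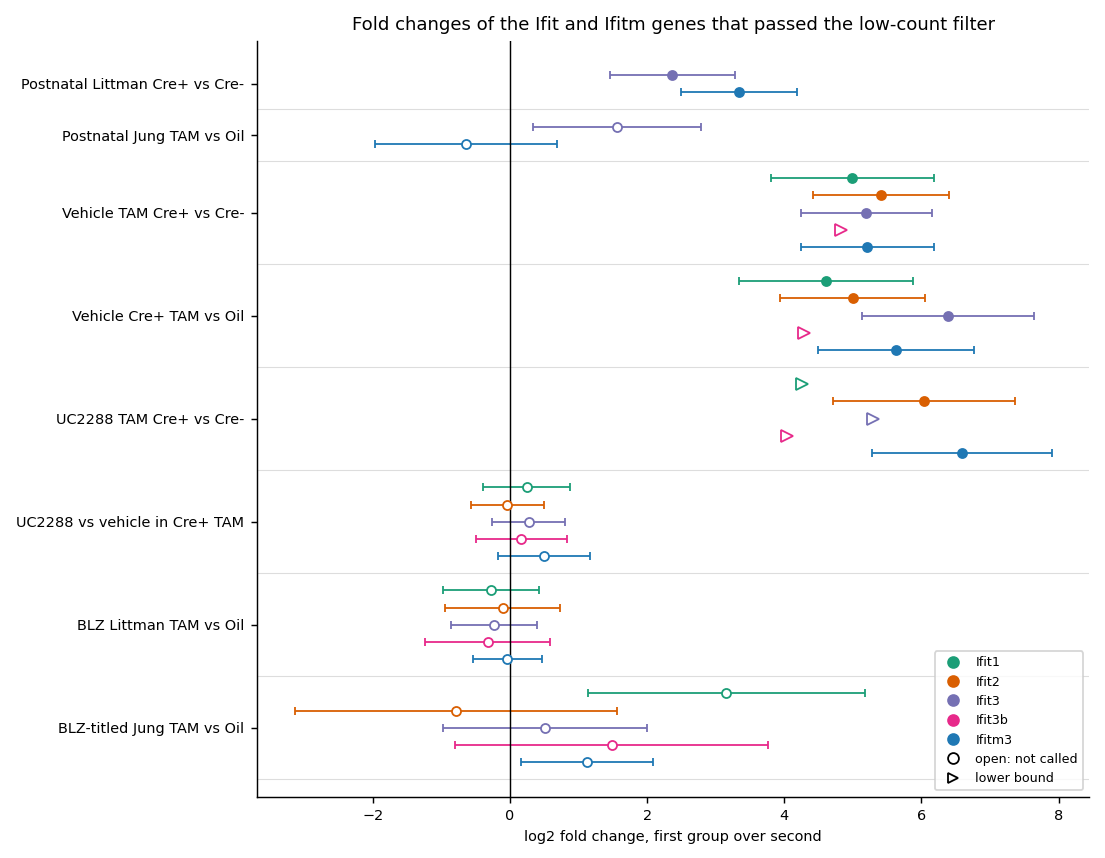
Log2 fold changes, first-named group over second, of the members that passed the low-count filter. Points are estimates with 95% intervals, filled where called at an adjusted p below 0.05, and triangles are lower bounds where the second group had no count. Filled points and triangles lie between 2 and 8 in the 3 Cre+ or TAM comparisons of the vehicle and UC2288 table and in Littman pups, and the other 4 comparisons drawn hold open points.

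The order of the groups was much the same for Ifit1, Ifit2, Ifit3, Ifit3b and Ifitm3 in the vehicle and UC2288 table. Both Cre+ TAM groups came first, with UC2288 TAM Cre+ highest by mean in all of these but Ifit2, and they overlapped each other. The other 3 groups came after a gap with no overlap, and they overlapped among themselves. For Ifitm3 the means were 1120 CPM in UC2288 TAM Cre+, 837 CPM in Vehicle TAM Cre+, 19.6 CPM in Vehicle TAM Cre-, 16.1 CPM in Vehicle Oil Cre+ and 9.44 CPM in UC2288 TAM Cre- libraries. In the postnatal table Littman Cre+ libraries had the highest mean of all 6 members, and for Ifitm2 and Ifitm3 they overlapped no other group.

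Within groups the members did not all vary together. Pearson's r of log2 CPM was taken over the 9 Cre+ TAM libraries of the vehicle and UC2288 table, with group means removed. It was 0.69 between Ifit3b and Ifitm3, 0.58 between Ifit2 and Ifit3, -0.20 between Ifit1 and Ifit2 and -0.01 between Ifit3 and Ifitm3. Ifitm2, at a few counts per library, had r of 0.75 with Ifit3b, 0.59 with Ifit1, 0.54 with Ifitm3, 0.42 with Ifit2 and 0.26 with Ifit3. Over the 7 BLZ Littman libraries r ran from -0.37 between Ifit2 and Ifitm2 to 0.86 between Ifit1 and Ifitm3. The latter pair had an r of 0.19 over the 9 Cre+ TAM libraries. Among 4952 other tested genes of the vehicle and UC2288 table, over 21 libraries with group means removed, B2m, which encodes the light chain of MHC class I, was most like Ifitm3 (r = 0.81), and Nectin2 most like Ifit3 (r = 0.81). In the postnatal table Ddx10 was most like Ifitm3 (r = 0.81), over 19 libraries. These values describe the libraries, which share their sequencing depth, and carry no test.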

How the data were processed

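Count tables were analysed as deposited. Per the submitters' processing notes the authors used UMI-tools, Trim Galore, HISAT2, featureCounts and GRCm38, with no version or setting given in the sources used here. Reads carried 10-base molecular identifiers, per the labels' protocols, and what the authors deposited is 1 integer count for each gene and library. Each library came from 15 of the 30 uL of lysate.

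Groups followed the sample titles. CPM used column totals. Tests used edgeR 4.0.16 in R 4.3.3 (TMM, filterByExpr with a minimum count of 10, 1 quasi-likelihood fit for each table, with adjustment by Benjamini-Hochberg). The test steps were tested on simulated data. A fold against a group at 0 is a lower bound from a floor of 3 counts over the group. Pooled ratios carry exact 95% intervals for counting error only. Alternatives were RLE size factors, DESeq2 1.42.0, no low-count filter, only the compared groups, sex as covariate, a replicate block and each library left out.

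The rule for named genes took the members present in a table, up to 4 called pathway genes of largest fitted change in a comparison and the genes most like Ifit3 and Ifitm3, of which some values are not reported here. The members and lists were chosen with earlier results of these data known.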

Additional observations from a re-analysis of the deposited data

Results flagged for a closer look

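Ifit3 reached 279.5 CPM in BLZ Littman TAM replicate 2, and its gap to the next of the 4 libraries was large against the range of the group. Ifnb1 had 10 counts in the same library, the most of any library of the series.

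Cx3cr1 stood apart in 3 libraries by the same measure. It was 1803 CPM in UC2288 TAM Cre+ replicate 3, 2183 CPM in Postnatal Jung TAM replicate 1 and 1545 CPM in Vehicle Oil Cre+ replicate 4. Ifitm3 in UC2288 TAM Cre+ replicate 3 was the lowest of its group, at 362 CPM. Such a check picks out about 1 in 20 groups by chance, and 36 groups were checked.

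The Ifitm3 difference between Littman Cre+ and Cre- pups was larger than that between Jung TAM and Oil pups, by 3.98 on the log2 scale in the test of the difference itself (edgeR, adjusted p = 0.00701). The contrasts compare genotypes in one line and injections in the other.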

How the results depend on the processing

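The number of members called was the same in all comparisons with RLE size factors and with sex as covariate. No comparison had every same-numbered pair of libraries correlated above 0.1 (0.0353 to 0.0847 in Littman pups), though some single pairs were. Adult-titled Jung TAM and Oil pairs 1 to 4 had 0.341, 0.158, -0.161 and 0.248. UC2288 TAM Cre+ and Cre- pairs 1, 2 and 3 had 0.344, -0.144 and 0.0376. Whether libraries of the same number were handled together was not tested. The replicate block left the 5 calls of Vehicle TAM Cre+ against Cre- and the other 14 counts as they were. In Littman Cre+ against Cre- pups 2 members were called, 5 with no low-count filter, 1 with only the compared groups, and 1 to 2 with a library left out. It was 1 without Cre+ replicate 2, 3, 4 or 5, since Ifit3 then fell below the filter. In Littman Cre+ against Jung TAM pups 1 was called, 3 with no low-count filter and 1 to 2 with a library left out, with Ifit3 at 1.39 (adjusted p = 0.0313) without Cre+ replicate 1. DESeq2 gave no adjusted p for Ifit3 and Ifitm3 in the postnatal line difference, and for Ifit1, Ifit2, Ifit3 and Ifit3b in UC2288 against vehicle in Cre+ TAM mice and in the interaction, so no count was made there.

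Leaving out a library turned the sign of some uncalled log2 fold changes. In UC2288 against vehicle, Cre+ TAM, Ifit2 ran from -0.226 to 0.0655 and Ifit3b from -0.0657 to 0.436. In BLZ Littman TAM against Oil, Ifit2 ran from -0.37 to 0.32 and Ifitm3 from -0.17 to 0.16. In BLZ-titled Jung TAM against Oil, Ifit2 ran from -1.73 to 2.88 and Ifit3b from -0.35 to 3.77, and in that line difference Ifit2 ran from -2.99 to 1.62 and Ifit3b from -4.09 to 0.0277. Called values moved by more than 1.5 times when a library of the lower group was left out. For Vehicle TAM Cre+ against Cre-, Ifit1 was 7.11 without Cre- replicate 5 and Ifit3 5.81 without Cre- replicate 1. Against oil, Ifit1 was 7.10 and Ifit2 5.88 without oil replicate 1, and Ifit3 was 8.15 and Ifitm3 6.26 without oil replicate 4. For UC2288 TAM Cre+ against Cre-, Ifit2 was 7.94 without Cre- replicate 1 and Ifitm3 8.33 without Cre- replicate 3. All stayed called, and a fold against a group then left at 0 depends on the prior count. The cause was not tested.

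Counts of all genes called moved by more than 1.5 times in several comparisons. UC2288 against vehicle in Cre+ TAM mice gave 36, with 21 under RLE, 132 without filter, 22 with sex, 2 with only the compared groups and 140 by DESeq2. In Cre- mice it gave 1, and 36 without filter. The interaction gave 96, with 179 without filter, 58 with the block, 46 with sex, 33 with only the compared groups and 163 by DESeq2. UC2288 TAM Cre+ against Cre- gave 198, and 111 with only the compared groups. The postnatal line difference gave 25, with 55 without filter and 47 by DESeq2, Littman Cre+ against Jung TAM 477 and 314 by DESeq2, and Jung TAM against Oil 6, with 15 without filter, 11 with the block and 12 with only the compared groups. Without filter the adult Littman comparison moved to 10 from 1, the adult-titled Jung one to 6 from 0, BLZ Littman to 44 from 3 and its line difference to 10 from 0. With a library left out, UC2288 against vehicle gave 1 to 266 in Cre+ and 0 to 45 in Cre- mice, the interaction 1 to 533, the postnatal line difference 22 to 76, Littman Cre+ against Jung TAM 296 to 569, Jung TAM against Oil 2 to 8, BLZ Littman 1 to 13 and adult Littman 0 to 7. The extremes came without UC2288 TAM Cre+ replicate 1 (266), UC2288 TAM Cre- replicate 3 (45 and 533) and Littman Cre+ replicate 2 (76). Members with a few counts per library could show only large differences at this depth.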

Other observations

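Rows of the same families outside the 6 members are given as values. Ifitm6 was counted in 6 libraries of the vehicle and UC2288, postnatal and BLZ-titled tables. It had 6 counts in BLZ Littman TAM replicate 1 and 1 in replicate 4, 1 in UC2288 TAM Cre+ replicate 2, 2 in Vehicle TAM Cre+ replicate 2, 4 in UC2288 TAM Cre- replicate 1 and 3 in Postnatal Littman Cre- replicate 2. BLZ Littman TAM replicate 1, UC2288 TAM Cre- replicate 1 and Postnatal Littman Cre- replicate 2 held neutrophil transcripts and the other 3 did not, and BLZ Littman Oil replicate 3, which held them too, had no Ifitm6 count. Ifitm1 had 10 counts in Vehicle TAM Cre+ replicate 1 and 1 count in replicate 2, with 0 in the other libraries of that table. Ifitm10 had 6 counts over the UC2288 TAM Cre+ group, 4 over Vehicle TAM Cre+, 8 over UC2288 TAM Cre-, 16 over Vehicle TAM Cre- and 14 over Vehicle Oil Cre+. It did not share the direction of Ifitm3 in these sums, which were not tested.

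Ifnb1 was counted in 4 libraries. It had 10 counts in BLZ Littman TAM replicate 2, 2 in replicate 3, and 1 each in UC2288 TAM Cre+ replicates 2 and 5.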
